A study of Mus musculus with 56 samples.

Results

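The slow-fibre contractile genes are 10 genes that encode the myosin chains, the thin-filament proteins, the calcium pump, the calcium store protein and the Z-disc protein typical of slow-twitch (type I) muscle fibres. They were chosen by name, as Myh7, Myl2, Myl3, Tnnt1, Tnni1, Tnnc1, Atp2a2, Tpm3, Casq2 and Myoz2. All 10 are among the 15539 genes of the count table, and all 10 were among the 14321 genes that passed the filter on low counts. RNA was sequenced from the gastrocnemius, a calf muscle that in mice is built mostly of fast fibres, in 56 C57Bl/6 mice fed chow 5015. The mice formed 8 groups of 7. Male controls had a locked wheel (MC) or a running wheel (MCE), and female controls likewise (FC and FCE). Males with the knockout label, HuR Skeletal Muscle Knockout, had a locked wheel (MH) or a running wheel (MHE), and females likewise (FH and FHE). The running wheel was available for 10 weeks, and the labels place this both between 10 and 20 weeks of age and at 5 months of age. In the study the knockout, HuR m-/-, comes from floxed Elavl1 (the gene of HuR, an RNA-binding protein) cut by a Cre recombinase under the Mlc1f promoter, which is a promoter of Myl1, a gene of fast fibres, and the controls are floxed littermates. Both kinds of mice therefore carry floxed Elavl1, and the Cre is driven by a fast-fibre promoter. Total counts per mouse ran from 6639782 to 21633091, with a median of 12380363. In whole muscle, more slow fibres and more slow transcript per fibre cannot be told apart.

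Slow fibres contract slowly, resist fatigue and rely on oxidative metabolism. Their sarcomeres use the β/slow myosin heavy chain with its ventricular-type light chains, and a thin filament whose troponin complex and tropomyosin differ from those of fast fibres. The slow programme is known to be held up by nerve activity through calcineurin and NFAT factors and through MEF2 factors, while Sox6 belongs to the regulators of the fast programme. HuR binds AU-rich stretches of RNA, often in the region after the stop codon, and is known for stabilising the transcripts it binds.

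Positions are those of GENCODE M21 on GRCm38, the build named in the submitters' processing notes. Myh7 (ENSMUSG00000053093; chromosome 14, 54970684 to 54994626, minus strand) encodes the slow myosin heavy chain, the motor of type I fibres. Myl2 (ENSMUSG00000013936; chromosome 5, 122100951 to 122113472, plus strand) encodes the regulatory light chain that binds it. Myl3 (ENSMUSG00000059741; chromosome 9, 110741861 to 110769798, plus strand) encodes the essential light chain. The 3 subunits of slow troponin come from Tnnt1 (ENSMUSG00000064179; chromosome 7, 4504570 to 4516382, minus strand), which binds tropomyosin, Tnni1 (ENSMUSG00000026418; chromosome 1, 135779434 to 135810989, plus strand), which inhibits contraction at rest, and Tnnc1 (ENSMUSG00000091898; chromosome 14, 31208312 to 31211729, plus strand), which binds calcium. Tpm3 (ENSMUSG00000027940; chromosome 3, 90072649 to 90100902, plus strand) encodes slow tropomyosin. Atp2a2 (ENSMUSG00000029467; chromosome 5, 122453513 to 122502225, minus strand) encodes SERCA2, the pump that returns calcium to the sarcoplasmic reticulum. Casq2 (ENSMUSG00000027861; chromosome 3, 102086415 to 102146514, plus strand) encodes calsequestrin 2, which holds calcium inside it. Myoz2 (ENSMUSG00000028116; chromosome 3, 123006206 to 123035015, minus strand) encodes a Z-disc protein that binds calcineurin. The annotation places genes on the opposite strand over part of Myh7 (among them the antisense RNA Mhrt), Myl2 (Ccdc63), Myl3 (Pth1r), Tnnc1 (Nisch) and Atp2a2 (Gm43361). Since use of strand in counting is not given in the sources used here, reads of such pairs cannot be told apart where they overlap. Tpm3 also has a similar gene, Tpm3-rs7, and a processed pseudogene, Tpm3-rs2, which could share reads with it. Tpm3 and Atp2a2 are also used by other cell types, so their counts need not be of slow fibres alone.

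The 250 bases before the annotated transcription start are shown for 5 members because they are the members whose windows held a motif marked here. RefSeq windows on GRCm38.p6 were matched for 9 of the 10 members by symbol, and Atp2a2 had none. RefSeq starts can differ from the ends of the GENCODE spans given above. The Myl3 window lies inside its span, and the Myoz2 window overlaps the end of its span. Each sequence is read 5′ to 3′ on the gene's strand, and capitals mark the MEF2 motif, the CArG box (the motif of serum response factor) and the M-CAT motif CATTCC (the motif of TEAD factors), each searched on both strands.
Myh7, chr14:54994627-54994876, minus strand: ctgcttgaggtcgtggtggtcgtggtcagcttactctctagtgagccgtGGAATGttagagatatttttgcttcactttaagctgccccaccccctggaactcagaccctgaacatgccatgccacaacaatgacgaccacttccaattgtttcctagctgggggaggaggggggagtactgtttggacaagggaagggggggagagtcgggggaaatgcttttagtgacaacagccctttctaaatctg
Tnnc1, chr14:31208062-31208311, plus strand: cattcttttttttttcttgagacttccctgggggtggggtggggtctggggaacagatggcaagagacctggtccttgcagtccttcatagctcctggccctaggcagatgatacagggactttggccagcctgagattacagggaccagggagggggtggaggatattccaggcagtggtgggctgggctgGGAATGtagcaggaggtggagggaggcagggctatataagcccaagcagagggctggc
Myl3, chr9:110763428-110763677, plus strand: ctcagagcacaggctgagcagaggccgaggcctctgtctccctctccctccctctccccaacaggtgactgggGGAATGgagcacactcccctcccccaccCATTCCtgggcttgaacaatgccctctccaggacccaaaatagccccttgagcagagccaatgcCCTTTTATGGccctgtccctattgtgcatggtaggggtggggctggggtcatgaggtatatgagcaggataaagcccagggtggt
Casq2, chr3:102086165-102086414, plus strand: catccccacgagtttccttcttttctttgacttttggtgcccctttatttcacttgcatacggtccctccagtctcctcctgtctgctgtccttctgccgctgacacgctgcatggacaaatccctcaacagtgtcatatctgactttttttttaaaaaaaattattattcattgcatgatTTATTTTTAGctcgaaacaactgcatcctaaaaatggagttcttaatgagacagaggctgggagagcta
Myoz2, chr3:123034988-123035237, minus strand: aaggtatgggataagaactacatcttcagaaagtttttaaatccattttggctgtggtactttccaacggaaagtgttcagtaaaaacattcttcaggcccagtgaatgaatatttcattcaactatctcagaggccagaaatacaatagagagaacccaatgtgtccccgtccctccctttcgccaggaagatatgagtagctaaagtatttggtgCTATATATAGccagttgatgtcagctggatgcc
M-CAT was found before Myh7, Tnnc1 and Myl3, in 3 of the 13 member windows, against 12.6% of the 32851 mouse windows of the same length. The M-CAT before Tnnc1 ended 53 bases before the start, and Myl3 had 2 of them and a CArG box, which 1.47% of all windows held. MEF2 was found before Casq2 and Myoz2 only, in 1 window each, against 2.92% of all windows. The general E-box CANNTG of the myogenic factors stood in each of the 13 member windows, but also in 66.2% of all windows, and the NFAT core GGAAA in 8 of the 13 against 55.6%. Of 7 windows of the members' fast-fibre counterparts, 3 held M-CAT, 1 a CArG box, 1 MEF2, 7 the E-box and 3 the NFAT core. The motifs are thus not particular to the slow genes. All of these are matches of letters, and binding was not measured.

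Before the results, checks of the libraries bear on them. Elavl1 did not pass as lower in mice with the knockout label. Its level, as counts scaled to library size by TMM (CPM), was 53.2 ± 7.89 (SD, n = 7) in MC, 51 ± 4.41 in MH, 44.7 ± 3.10 in FC and 48.6 ± 7.64 in FH. With running wheels it was 47 ± 13.8 in MCE, 61.1 ± 6.34 in MHE, 53.8 ± 4.65 in FCE and 54.2 ± 4.38 in FHE. In running males it was higher with the label (log2 difference 0.44, SE 0.11, adjusted p = 0.0242), and the label difference averaged over the 4 sex and wheel combinations was 0.13 ± 0.058 (log2, SE, adjusted p = 0.150) by limma. Whether the counted reads lie in the floxed part is not given, so this does not check the label, and "knockout label" is used throughout. Myl1, whose promoter drives the Cre, was lower by 0.65 on the log2 scale in labelled mice (SE 0.11, adjusted p = 5.6e-05). Of the 28 labelled mice 10 had Myl1 no lower than the lowest control of their sex: MH8, MH12, MHE4, MHE6, MHE7, FH30, FH31, FH34, FHE7 and FHE10. They are included in every label difference given here, which is a difference by the label as deposited. Whether all labelled mice carry the same genotype was not tested and cannot be told from these counts. A list of 8 heart genes would mark cardiac muscle, which shares many members of this list. Of these, Nppa, Nppb, Myl7 and Mybpc3 were not found by name in the count table and could not be checked. Tnni3 did not pass the filter. The highest levels in any mouse were 2.75 CPM for Myh6, 10.5 for Tnnt2 and 19.1 for Myl4. The libraries of mice MH9 and FC15 stood apart, with median Spearman correlations of 0.926 and 0.941 with the other libraries, against at most 0.973. Counts of Ins1 and Ins2, the insulin genes of the pancreas, set other libraries apart. All 7 MHE mice had Ins1 between 4.13 and 10.4 CPM and Ins2 between 5.41 and 11.9, and MCE28 had 6.84 CPM of Ins1 and 8.59 of Ins2. In the other 7 groups the medians were at most 0.0699 CPM for Ins1 and 0.106 for Ins2. What set these libraries apart is not given in the sources used here, and it cannot be told apart from the MHE group. This bears on the label difference of running males, the wheel difference of labelled males and the sex difference of running labelled mice. Through MCE28 it also bears on the wheel difference of male controls and the sex difference of running controls. MCE28 lay above the MCE mean in all 10 members. The mean effects include these pairs, and the part of this feature in any of them was not tested. Without MCE28 the label in running males still called 1 member and the mean effects called 8, 2 and 10 members for label, wheel and sex. All 7 MHE mice stay in that fit, so it cannot show their part.

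MC had the lowest group mean for all 10 members, and the highest was in FH for 5 members, in FHE for 4 and in FCE for Casq2. Myh7 had lowest, median and highest values of 35.8, 44.2 and 73 CPM in MC, of 42.1, 54.1 and 79.7 in MCE, of 41, 70.1 and 146 in MH and of 41.8, 92 and 118 in MHE. In females they were 58.3, 74.4 and 93.8 in FC, 77.2, 98.8 and 122 in FCE, 94.3, 100.2 and 161 in FH and 96.5, 126 and 140.4 in FHE. All 7 FH mice lay above all 7 FC mice, while 4 of the 7 MH mice lay inside the range of MC and the other three above it. From the lowest mean the order was MC, MCE, FC, MHE, MH, FCE, FH and FHE, and in that order MCE and FC were the only neighbours whose means differed by more than the larger of their 2 SDs. Over the 10 members 8 of 70 steps between neighbours were that large. As a share of the counts of the 4 adult heavy chains (Myh7, Myh2, Myh1 and Myh4, whose transcripts are of about the same length), Myh7 made up 0.141% ± 0.0344 (SD, n = 7) in MC and 0.481% ± 0.136 in FH, the lowest and the highest group means.

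**Figure D1:**
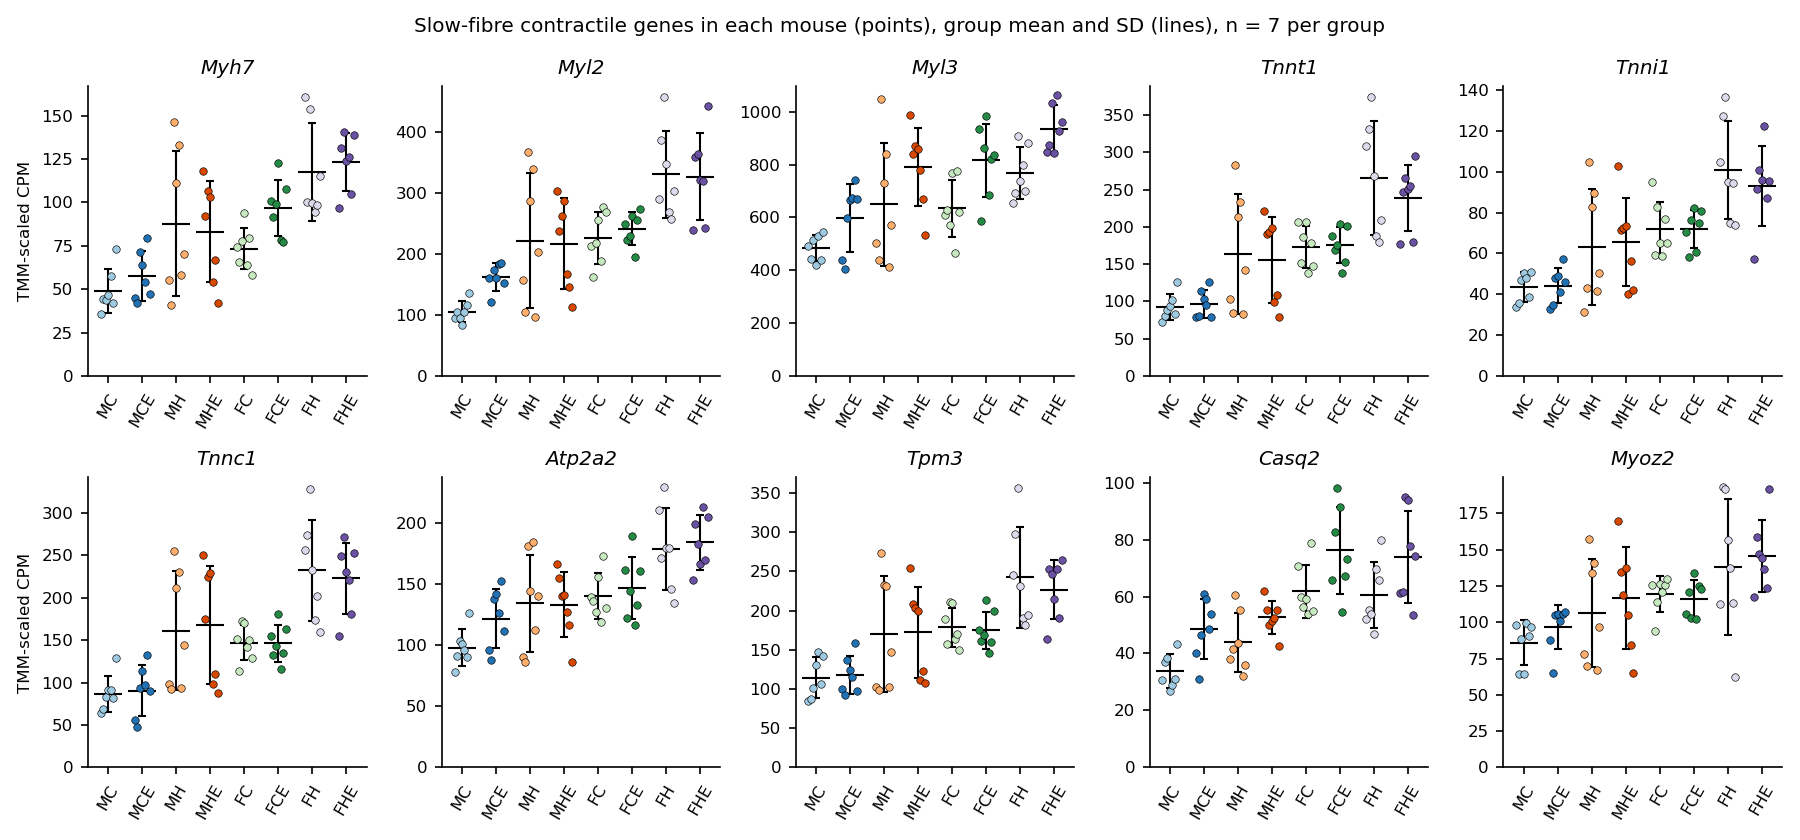
Level of each of the 10 slow-fibre genes in each of 56 mice (points), in TMM-scaled CPM, with the mean and SD of 7 mice per group (lines). The median of each female group lies above that of the male group with the same label and wheel, and the MH and MHE points of most genes spread over a wide range, for Myh7 from 41 to 146 CPM in MH.

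The first comparison asks how the knockout label went with the slow genes. Averaged over the 4 sex and wheel combinations, 8 of the 10 members were higher in labelled mice and none was lower, where 11.8% of the 14321 genes tested passed in either direction and 4.43% passed as higher. The median of the members was 0.44 on the log2 scale, against 0.014 over all genes tested. The test was voom with limma over 56 mice, with Benjamini-Hochberg adjustment over all genes at a threshold of 0.05.

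Within the thin filament, calcium-binding Tnnc1 differed most. Its lowest, median and highest levels were 63.8, 82.7 and 129 CPM in MC against 92.8, 145 and 256 in MH, and 47.8, 93.9 and 133 in MCE against 87.8, 175 and 251 in MHE. In females they were 114, 151 and 173 in FC against 159, 232 and 328 in FH, and 116, 143 and 180.4 in FCE against 155, 230.4 and 272 in FHE. Labelled and control ranges overlapped in each pair of groups, yet 27 of 28 labelled mice lay above the median of their matched controls. The mean difference was 0.72 ± 0.11 (log2, SE, adjusted p = 1.4e-05), that is 1.65-fold. Tnnt1 gave 72.4, 88.2 and 127 CPM in MC, 82.5, 143 and 284 in MH, 139, 179 and 207 in FC and 179.6, 269 and 374 in FH. With running wheels Tnnt1 gave 79, 95.1 and 127 in MCE, 78.8, 191 and 222 in MHE, 138, 176 and 204 in FCE and 177, 252 and 295 in FHE. Its mean difference was 0.57 ± 0.10 (log2, SE, adjusted p = 0.000115), with 25 of 28 labelled mice above the matched median. Tnni1 and Tpm3, the inhibitory troponin and the tropomyosin, followed with 0.44 ± 0.10 (log2, SE, adjusted p = 0.000939) and 0.44 ± 0.094 (log2, SE, adjusted p = 0.000891). All 4 thin-filament members thus passed.

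The 3 myosin members passed as well. Myh7 differed by 0.55 ± 0.10 (log2, SE, adjusted p = 0.000124), with 24 of 28 labelled mice above the matched median. For Myl2, the regulatory light chain, the lowest, median and highest values were 82.9, 104 and 137 CPM in MC, 96.2, 204 and 368 in MH, 162, 218 and 277 in FC and 259, 304 and 458 in FH. Of the 7 MH mice 5 lay above all MC mice, and of the 7 FH mice 5 lay above all FC mice. Averaged over the 4 combinations Myl2 differed by 0.56 ± 0.10 (log2, SE, adjusted p = 0.000121), or 1.47-fold. Myl3, the essential light chain, differed less, by 0.31 ± 0.072 (log2, SE, adjusted p = 0.00177).

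Of the calcium and Z-disc members 1 of 3 passed. Atp2a2 was higher in labelled mice by 0.30 ± 0.071 (log2, SE, adjusted p = 0.00245). Casq2 gave 0.10 ± 0.071 (log2, SE, adjusted p = 0.410) and Myoz2 0.23 ± 0.091 (log2, SE, adjusted p = 0.0874), neither of which passed, and the 95% interval of Casq2 ran from -0.043 to 0.24. In locked females Casq2 stood at 61.9 ± 9.32 CPM in FC and 60.5 ± 11.6 in FH (SD, n = 7). Myoz2 passed under 3 of 11 other settings, and the 8 called members passed under all of them and without any single mouse.

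Taken 1 pair of groups at a time, few members passed. In locked males 1 of the 10 did, Myl2 (log2 difference 0.91, SE 0.21, adjusted p = 0.0211), where 1.15% of all genes passed in either direction and 0.321% as higher. In running males 1 did, Tnnc1 (log2 difference 0.87, SE 0.22, adjusted p = 0.0197), where 2.63% passed in either direction and 0.754% as higher. In locked females none of the 10 did, with 0.384% of all genes called, and in running females none did by limma, with 0% called by limma, where 1807 genes had an unadjusted p under 0.05 and DESeq2 called 77 genes. At an unadjusted p under 0.05 the members were 7 of 10 in locked females and 4 of 10 in running females. Over all 14321 genes tested, 2043 and 1807 had such a p. Neither edgeR's quasi-likelihood test nor DESeq2's Wald test called any member in either comparison. The log2 difference was positive for 10, 10, 9 and 9 of the 10 members in locked males, running males, locked females and running females. The call of Myl2 in locked males was lost without MH9 and FC15 (adjusted p = 0.0567), and without those 2 libraries 8 members still passed in the mean of the 4 pairs. With 1 mouse left out, none passed in locked males without MC16, MC20, MH15, MH23, MH24 or MH9, while 2 passed without MC31 and 4 without MH12 or MH8. In running males none passed without MCE10, MCE13, MHE1, MHE21 or MHE22 and 3 passed without MHE4 or MHE7.

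The Myh7 share of heavy chain counts was compared by itself with exact permutation tests. It was 0.291% ± 0.0349 in FC and 0.481% ± 0.136 in FH (exact two-sided permutation p = 0.00233, adjusted over 8 comparisons p = 0.0186). In running females it was 0.316% ± 0.0646 in FCE and 0.47% ± 0.0888 in FHE (exact permutation p = 0.00524, adjusted p = 0.0210). The male pairs did not pass, at 0.141% ± 0.0344 in MC and 0.26% ± 0.142 in MH (exact permutation p = 0.0519, adjusted p = 0.104) and at 0.187% ± 0.0521 in MCE and 0.288% ± 0.0936 in MHE (exact permutation p = 0.0321, adjusted p = 0.0855). The first of these passed without MH12 (exact permutation, adjusted p = 0.0295), and the second without MHE4 or MHE7 (exact permutation, adjusted p = 0.0420 and 0.0311).

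**Figure D2:**
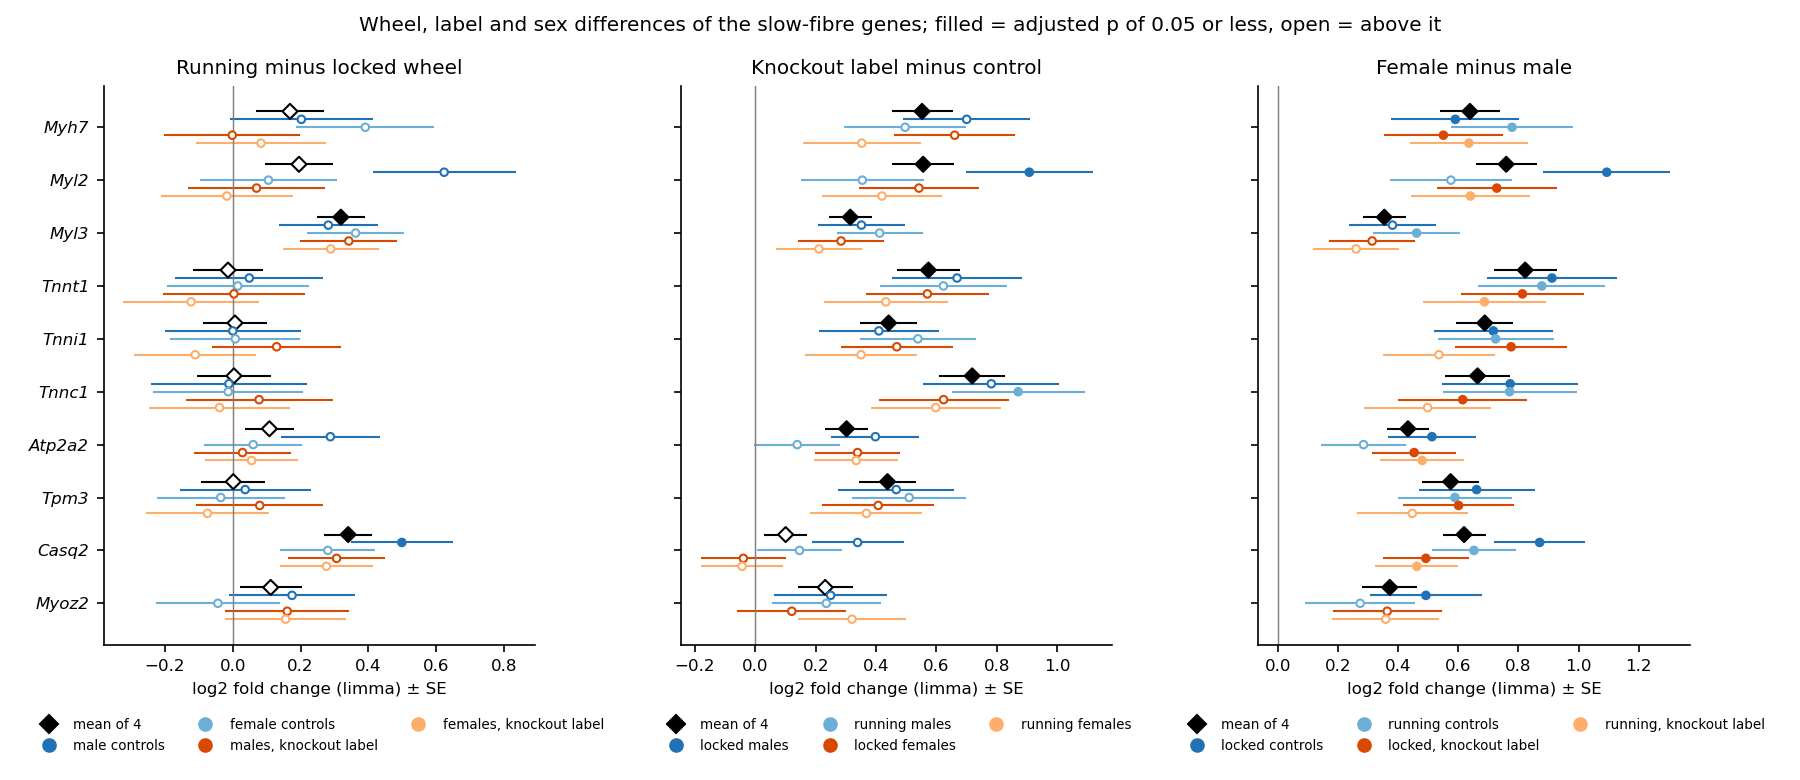
Log2 fold change (limma) with its standard error for the 10 slow-fibre genes, for the running against the locked wheel, the knockout label against controls and females against males. Diamonds are the mean of 4 pairs of groups and circles the single pairs, and filled symbols have an adjusted p of 0.05 or less: 2 diamonds are filled for the wheel, 8 for the label and 10 for sex.

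The second comparison asks how the wheel went with the slow genes. Averaged over the 4 pairs, 2 of the 10 members were higher with a running wheel, Myl3 and Casq2, and none was lower, where 5.96% of all genes passed in either direction and 3.42% as higher. Casq2 was 26.7, 30.9 and 43.3 CPM in MC against 31, 48.6 and 60.7 in MCE, and 32.2, 41.6 and 60.5 in MH against 42.7, 52.4 and 62 in MHE, as lowest, median and highest values. In females it was 53.8, 59 and 78.8 in FC against 54.7, 73.2 and 98.2 in FCE, and 46.9, 55.4 and 79.8 in FH against 53.4, 74.3 and 94.8 in FHE. The ranges overlapped in each pair, and 26 of 28 running mice lay above the median of their locked counterparts. The mean difference was 0.34 ± 0.071 (log2, SE, adjusted p = 0.00152), or 1.27-fold. Myl3 was 483 ± 49.3 CPM (SD, n = 7) in MC and 599 ± 129 in MCE, 649.6 ± 234 in MH and 791 ± 148 in MHE, 635 ± 108 in FC and 816 ± 139 in FCE, and 768 ± 98.2 in FH and 937 ± 88.2 in FHE. It differed by 0.32 ± 0.072 (log2, SE, adjusted p = 0.00318), with 24 of 28 running mice above the matched median.

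The thin-filament members gave values near 0 with the wheel. The log2 differences were -0.014 ± 0.10 (SE) for Tnnt1, 0.0065 ± 0.10 for Tnni1, 0.0035 ± 0.11 for Tnnc1 and 0.0015 ± 0.094 for Tpm3. The 95% interval of Tnnc1, the least precise of them, ran from -0.22 to 0.22, and differences inside it could not be told from 0 here. Myh7 gave 0.17 ± 0.10 (log2, SE, adjusted p = 0.371), and Myl2 gave 0.20 ± 0.10 (log2, SE, adjusted p = 0.277). Atp2a2 and Myoz2 gave 0.11 ± 0.071 and 0.11 ± 0.091. The wheel difference of the Myh7 share passed in none of the 4 pairs by exact permutation test, the smallest adjusted p being 0.113 in male controls.

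By single pairs the wheel calls were fewer. In male controls 1 member passed, Casq2 (log2 difference 0.50, SE 0.15, adjusted p = 0.0481), where 3.24% of all genes passed in either direction and 1.49% as higher, and this call was lost with DESeq2's size factors and without any 1 of MC16, MC17, MC19, MC20, MC29, MCE10, MCE25, MCE26, MCE27, MCE28 or MCE5. In male controls Myl2 went from 105 ± 17.4 CPM to 163 ± 22.3 (SD, n = 7), at 0.62 ± 0.21 (log2, SE, adjusted p = 0.0875). None of the 10 passed in female controls (8.74% of all genes called), labelled males (0.0419%) or labelled females (3.85%) by limma. At an unadjusted p under 0.05 the members were 1, 2 and 2 of 10. Over all 14321 genes tested 3342, 1821 and 2492 had such a p, so these member counts do not stand out. Neither edgeR's nor DESeq2's test called any member in these 3 comparisons.

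The heavy chains of the other oxidative and intermediate fibres were higher with the wheel. Myh2, the type IIa chain, was 1214 ± 196 CPM in MC and 1855 ± 362 in MCE, and 1325 ± 282 in FH and 2132 ± 241 in FHE (SD, n = 7), with a mean wheel difference of 0.55 ± 0.065 (log2, SE, adjusted p = 3.0e-08). Myh1, the type IIx chain, gave 0.50 ± 0.061 (log2, SE, adjusted p = 1.0e-07), and 27 of 28 running mice lay above the matched median for each of these 2 genes. Myh4, the type IIb chain, gave -0.078 ± 0.049 (log2, SE, adjusted p = 0.399), and with the label Myh2 gave -0.017 ± 0.065 (log2, SE, adjusted p = 0.921). Whether the wheel and label effects of a gene differ was not tested.

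Sex was the comparison in which every member passed. All 10 were higher in females in the mean of 4 pairs, where   33% of all genes passed in either direction and 15.8% as higher. Tnnt1 led with 0.82 ± 0.10 (log2, SE, adjusted p = 4.4e-09), or 1.77-fold, and all 7 FC mice (139 to 207 CPM) lay above all 7 MC mice (72.4 to 127). Myl2 followed with 0.76 ± 0.10 (log2, SE, adjusted p = 1.6e-08) and likewise had no overlap between FC (162 to 277) and MC (82.9 to 137). Myh7 gave 0.64 ± 0.10 (log2, SE, adjusted p = 7.9e-07), and all 28 females lay above the median of the matched males for Myh7, Myl2 and Casq2. Casq2, which missed the threshold for the label, gave 0.62 ± 0.071 (log2, SE, adjusted p = 3.1e-10). The smallest sex differences were those of Myl3, at 0.35 ± 0.072 (log2, SE, adjusted p = 7.4e-05), and Myoz2, at 0.37 ± 0.091 (log2, SE, adjusted p = 0.000932). By pairs, 9 members passed in locked controls (21.5% of all genes, 10.3% as higher), 7 in running controls (7.65%, 3.09%), 8 in locked labelled mice (19.3%, 9.08%) and 5 in running labelled mice (5.57%,  2.3%). In running controls 4 passed without FCE27, MCE10 or MCE13. In locked labelled mice 4 passed without FH17, MH11 or MH12 and 5 without MH8. In running labelled mice none passed without FHE3, FHE8, MHE4 or MHE7 and 1 without FHE2, FHE21, FHE22 or MHE6.

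Markers of other cell types moved with sex, and their part in the sex difference was not tested. For scale, 2269 of the 14321 genes were higher and 2451 lower in females. With the label 634 were higher and 1061 lower, and with the wheel 490 and 364. The summed level of 10 adipocyte genes was 216 to 468 CPM in males and 279.7 to 805 CPM in females, with 8 of 10 higher in females. The sums were 746 to 2279.8 against 1052 to 6392 CPM for 5 erythroid genes (5 of 5 higher in females) and 897 to 2285 against 1101 to 3307 CPM for 8 tendon and fibroblast genes (7 of 8). Of 7 leukocyte genes 5 were tested and 3 of those were higher in females, Ptprc, Adgre1 and Lyz2, with sums of 29.3 to 93.8 CPM in males and 39.3 to 159 in females. In locked controls 8, 5, 7 and 4 of these adipocyte, erythroid, tendon and fibroblast, and leukocyte genes were higher in females. In running controls 2, 0, 0 and 0 were. In labelled mice 8, 3, 6 and 3 were higher with locked wheels, and 6, 0, 1 and 0 with running wheels. Over all genes 1470, 442, 1300 and 330 were higher in females in these pairs, in that order. Of 5 smooth muscle genes 2 were lower in females, Des (which skeletal fibres also use) and Myh11, with sums of 782 to 1447 against 684 to 1056 CPM. Of 5 endothelial genes 2 were lower and 1 higher in females, with sums of 204 to 307 against 221 to 305 CPM. With the label 1 endothelial gene was lower and none of the other 5 lists had a called gene. With the wheel 2 endothelial genes were higher and 1 adipocyte gene was lower in the mean of 4 pairs. In female controls alone 5 of 10 adipocyte and 4 of 5 erythroid genes were lower with the wheel. So were 3 of 5 leukocyte and 5 of 8 tendon and fibroblast genes, where 606 of all genes were lower. For wheel by sex 4, 4, 3 and 5 genes of these lists were called, where 13.7% of all genes were. Of 6 Schwann cell and nerve genes 3 were higher in labelled mice, among them Pmp22 at 0.31 ± 0.082 (log2, SE, adjusted p = 0.00827), with sums of 119.6 to 315 CPM in controls and 105 to 361 in labelled mice. Of 8 liver genes 4 were lower with the running wheel, with sums of 8.97 to 3120 CPM in locked and 6.59 to 454 in running mice, and their part in the wheel differences was not tested. The 3 tested heart genes summed to at most 25.6 CPM in any mouse. Of them 1 was higher in females, 1 was lower with the label and 1 was lower with the running wheel.

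No interaction passed for any member. By limma, 0 of the 10 passed for wheel by label (where 0.00698% of all genes did, and 0 members at an unadjusted p under 0.05), 0 for wheel by sex (13.7% of all genes, 0 members unadjusted) and 0 for label by sex (0.00698% of all genes, 0 members unadjusted). Over all 14321 genes tested, 1613, 3859 and 1104 had an unadjusted p under 0.05 for these interactions, in that order. None of the alternatives called any member for an interaction. The label by sex interaction of Casq2 had the smallest p, at -0.28 ± 0.14 (log2, SE, unadjusted p = 0.0514, adjusted p = 0.656 by limma). Standard errors of the interactions were 0.14 to 0.22 on the log2 scale, so differences of that order could not be told from 0.

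Mice of 1 group differed widely in these genes, and did so together. The pooled SD within groups was 0.277 to 0.438 on the log2 CPM scale, lowest for Casq2 and highest for Tnnc1, with a median of 0.377 against 0.31 over all genes tested. Genes with few counts vary more, and among the tenth of genes with a like mean count, 91.8% to 97.2% had a smaller SD than the members. The fast counterparts had a median SD of 0.148, and Myl1, the gene of the Cre promoter, had 0.454. The spread was widest in MH for 8 members, in FH for Myoz2 and in MCE for Casq2. In MH, Myl2 had an SD of 0.79, Tnnt1 0.734 and Myh7 0.704, and in MC they had 0.23, 0.264 and 0.336. The highest MH mouse had 3.83 times the Myl2 of the lowest, against 1.65 times in MC. These SDs are descriptions, and differences between them were not tested.

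**Figure D3:**
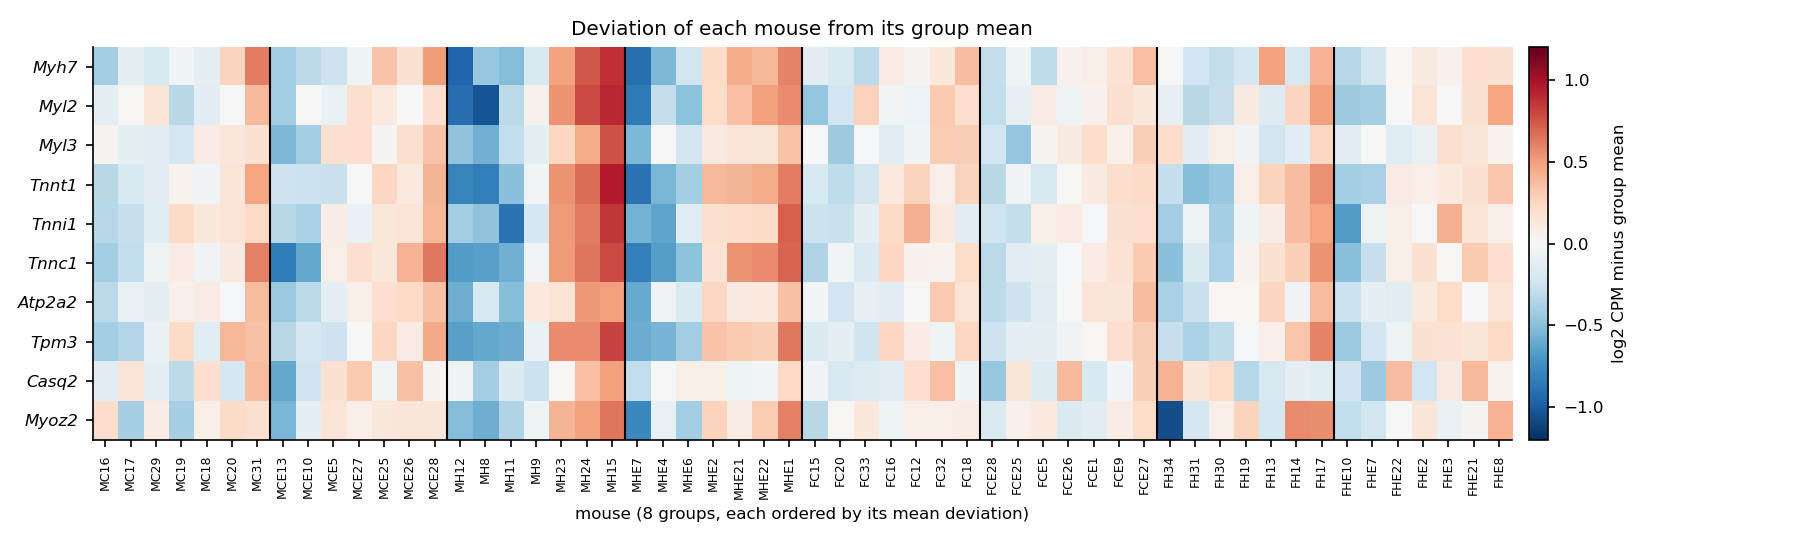
Deviation of each mouse from the mean of its group (log2 CPM, colour) for the 10 slow-fibre genes, with the 8 groups side by side and the mice of each group ordered by their mean deviation. Columns are mostly of 1 colour, with MH8, MH11 and MH12 low and MH15, MH23 and MH24 high in all 10 genes.

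In 9 mice all 10 members lay above their group means and in 8 all 10 lay below. MH15, MH23 and MH24 were above in all 10, with mean deviations of 0.76, 0.40 and 0.58 on the log2 scale. MH8, MH11 and MH12 were below in all 10, at -0.58, -0.47 and -0.61. MH9, whose library stood apart, was at -0.080. Across the 45 pairs of members the correlation of within-group deviations over 56 mice ran from 0.281 to 0.959, with a median of 0.765. Without Casq2 the lowest of 36 pairs was 0.601. By group the median over the 45 pairs was highest in MH (0.95) and MHE (0.901) and lowest in FC (0.478), each over 7 mice. In FH 31 of 45 pairs were positive, and in FH the lowest r was -0.792. All values of a mouse come from 1 library, so a shift of 1 library moves its genes together.

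Myh7 served as the reference for this shared spread. A slope on the within-group log2 CPM of Myh7, fitted with voom and limma for each gene, passed for all 9 other members, where 0.775% of 14320 genes passed with a positive slope. Tnnc1 and Tnnt1 followed it nearly 1 to 1, with slopes of 0.97 ± 0.069 (SE) for Tnnc1 and 0.96 ± 0.058 for Tnnt1. Tpm3, Myl2 and Tnni1 had 0.85, 0.82 and 0.77, and Atp2a2, Myoz2 and Myl3 had 0.60, 0.56 and 0.53. Casq2 had the shallowest slope, 0.32 ± 0.087 (adjusted p = 0.0388 by limma), and this call was lost without any 1 of FCE27, FCE28, FHE10, FHE21, FHE7, MC31, MCE10, MCE13, MH15, MH24, MH8, MHE1 or MHE7. The other adjusted p-values were 0.000441 or smaller.

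In the correlations over 56 mice Casq2 was again the lowest. Tnnt1 had Pearson's r of 0.925 and Spearman's rho of 0.917 with Myh7, and r was 0.909 without MH12 and MH15, the 2 mice farthest from the median of Myh7. Tpm3, Tnnc1 and Atp2a2 had r of 0.904, 0.894 and 0.86, and Myl2, Tnni1 and Myl3 of 0.809, 0.807 and 0.747. For these 7 the permutation p of r and of rho was 1.0e-05, the smallest that 100000 permutations within groups can give. Myoz2 had r of 0.617 and rho of 0.586 (permutation p = 8.0e-05 and 1.3e-04), and 0.557 without the 2 mice. Casq2 had r of 0.461 and rho of 0.453 (permutation p = 5.7e-04 and 0.00104), and 0.435 without the 2 mice. Within single groups r ran from 0.631 to 0.985 for Tnnt1 and from -0.298 to 0.778 for Casq2, and Casq2 and Myoz2 were positive in 7 of 8 groups each, the other members in all 8. These are 9 relations, whose p-values are unadjusted.

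**Figure D4:**
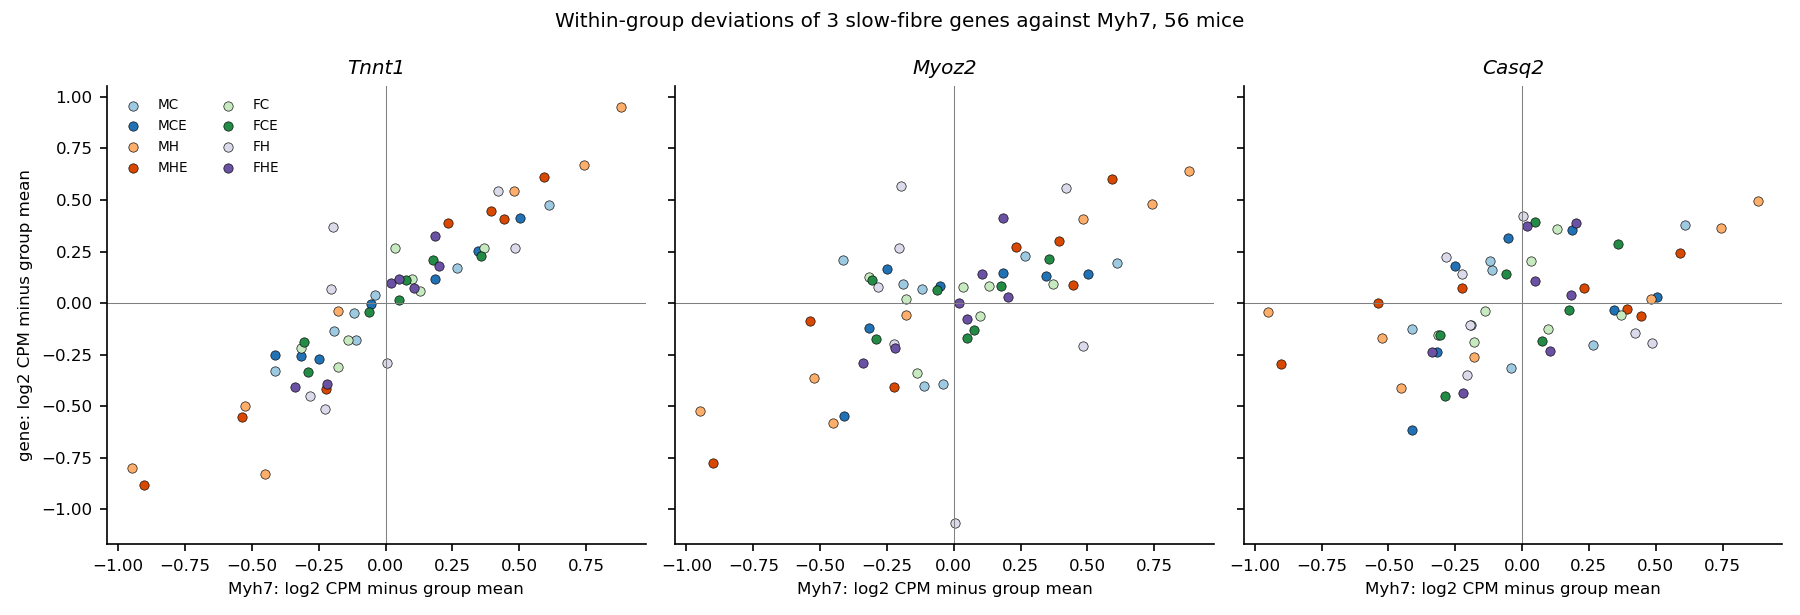
Deviations from the group mean (log2 CPM) of Tnnt1, Myoz2 and Casq2 against those of Myh7, 1 point per mouse, coloured by group, 56 mice. Tnnt1 lies close to a line (r = 0.925), Myoz2 less so (r = 0.617) and Casq2 scatters widely (r = 0.461).

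Among genes outside the list with a mean of at least 10 counts, Actn2, the α-actinin of slow and oxidative fibres, was most like Myh7 over the 56 within-group deviations (r = 0.697). It was followed by H19, an imprinted noncoding RNA (0.668), Mybpc1, the slow myosin-binding protein C (0.652), Tmem116 (0.633), Smc5 (0.61) and Ldhb, the lactate dehydrogenase subunit of oxidative tissue (0.603). Gm29170, B230369F24Rik, Hspa1l and Mpdz completed the 10, down to 0.571. The gene least like it was Myl1 (-0.693), before Dpm1, Serinc3, Cops9 and Dph3, the last at -0.615.

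Myl1 encodes the essential light chain of fast fibres and is the promoter source of the Cre, so its values are set beside those of the slow genes. In MH, the 3 mice high in all slow genes had Myl1 at 2319.7 (MH15), 4462 (MH24) and 5470.2 CPM (MH23). Of the 3 mice low in all slow genes, MH8 and MH12 had 13107 and 13731 CPM, inside the range of male locked controls (8834 to 14049), and MH11 had 6528. In MHE, the 4 mice MHE1, MHE2, MHE21 and MHE22 had Myl1 between 5420 and 5776 CPM and Tnnt1 between 191 and 222. The other MHE mice, MHE4, MHE6 and MHE7, had Myl1 between 9129 and 10816 and Tnnt1 between 78.8 and 109, close to the 79 to 127 of MCE. MH11 and MH9 had Myl1 (6528 and 6417 CPM) below every male control, and Tnnt1 was 103 in MH11, inside the range of male controls, and 143 in MH9, above it.

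Females gave the same picture in part. FH13, FH14, FH17 and FH19 had Myl1 between 4812 and 5475 CPM with Tnnt1 between 269 and 374, and FH30, FH31 and FH34 had Myl1 between 8395 and 13359.8 with Tnnt1 between 179.6 and 209.5. In FHE, the mice FHE7 and FHE10, at 8477 and 8213 CPM of Myl1, were the 2 with all 10 members below the group mean, while FHE3, at 7354, had Tnnt1 at 255, above all female controls. A negative relation with Tnnt1 was also present in males without the label: r of Myl1 with Tnnt1 was -0.681 in MC and -0.832 in MCE over 7 mice each, against -0.0627 in FC and -0.0741 in FCE. With Tpm3, the lowest of the 10 members in MC, it was -0.935 in MC and -0.0754 in FC. Of the 10 members r was negative for 8 in MC, 10 in MCE, 5 in FC and 9 in FCE. It was 0.03 for Myl2 and 0.396 for Casq2 in MC, and reached 0.768 for Myoz2 in FC. These are descriptions, chosen after the values were seen, and no r was pooled over labelled mice because their Myl1 levels fall into separate ranges. In FH, whose Myl1 levels also fall into separate ranges, r with Myl1 over 7 mice was 0.924 for Casq2 and 0.276 for Myl3, against -0.902 for Tnnc1.

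**Figure D5:**
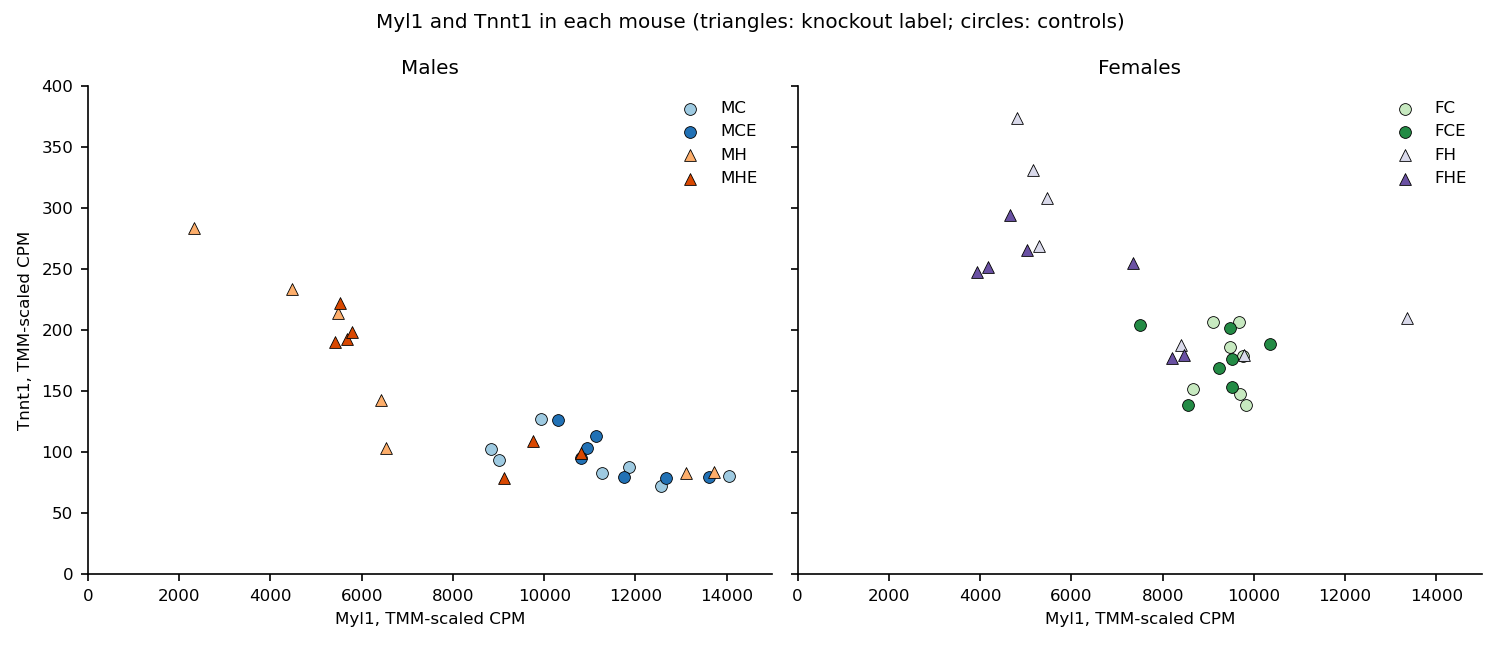
Myl1 (x axis) and Tnnt1 (y axis) in each mouse, in TMM-scaled CPM, for males and females, with circles for controls and triangles for the knockout label. Apart from MH11, labelled mice with Myl1 below that of controls have Tnnt1 above that of controls of their sex, up to 374 CPM in FH17, and the labelled mice with Myl1 inside the range of controls of their sex have Tnnt1 between 78.8 and 109 CPM in males and between 177 and 188 in females.

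Each member was set beside its fast counterpart. Of the 14321 genes tested, 1061 were lower with the label, 364 with the wheel and 2451 in females. With the label 2 of 10 were lower, Myl1 and Tnnc2 (fast troponin C, log2 difference -0.15, SE 0.037, adjusted p = 0.00498), and none was higher. Atp2a1, the fast calcium pump, gave 0.092 ± 0.048 (log2, SE, adjusted p = 0.225), and Casq1 gave 0.11 ± 0.040 (log2, SE, adjusted p = 0.0595). With the wheel 6 of 10 were lower, among them Tpm1 (log2 difference -0.19, SE 0.031, adjusted p = 2.9e-05), Myoz1 (log2 difference -0.18, SE 0.035, adjusted p = 0.000419) and Mylpf (log2 difference -0.20, SE 0.040, adjusted p = 0.00115), and Tnnt3, Tnni2 and Tnnc2 were the other three. With sex 8 of 10 were lower in females, led by Myoz1 (log2 difference -0.37, SE 0.035, adjusted p = 1.0e-12). The ratio of each slow gene to its fast counterpart within a mouse needs no scaling between libraries. Its log2 difference with the label was positive for 9 of 10 pairs, from -0.0077 for Casq2 over Casq1 to 0.96, with a median of 0.52. With the wheel it was positive for all 10 pairs, with a median of 0.22, and from males to females for all 10, with a median of 0.75. A ratio shows only that the 2 genes changed unequally. The Myl3 over Myl1 ratio carries the fall of Myl1, at 0.96 with the label.

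Other genes known from slow fibres, 15 in a second list, answered to the wheel and the label in part. Among all 14321 genes 634 were higher with the label, 490 with the wheel and 2269 in females, and 1061, 364 and 2451 were lower. With the label 3 of 15 were higher and none lower: Csrp3, a stretch-responsive Z-disc protein (log2 difference 0.59, SE 0.16, adjusted p = 0.0104), Car3, the carbonic anhydrase of slow fibres (log2 difference 0.42, SE 0.085, adjusted p = 0.000442), and Actn2 (log2 difference 0.32, SE 0.064, adjusted p = 0.000343). With the wheel 6 of 15 were higher and none lower. They included Myom3, an M-band protein of slow and IIa fibres (log2 difference 0.64, SE 0.079, adjusted p = 1.2e-07), Ldhb (log2 difference 0.50, SE 0.060, adjusted p = 3.7e-08), myoglobin Mb (log2 difference 0.40, SE 0.051, adjusted p = 1.6e-07) and Fabp3, the fatty acid carrier (log2 difference 0.33, SE 0.068, adjusted p = 0.00123), beside Pdlim1 and Actn2. In females 5 of 15 were higher, led by Sln, sarcolipin (log2 difference 0.84, SE 0.14, adjusted p = 3.3e-06), and 3 were lower, Ankrd2, Smpx and Lmod2. Their medians were 0.13 for the label, 0.29 for the wheel and -0.056 for sex on the log2 scale.

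Over all 14321 genes 634 were higher and 1061 lower with the label, 490 and 364 with the wheel, and 2269 and 2451 in females. Of 23 regulators of the slow programme, 2 were higher and 4 lower in labelled mice. The lower ones were the calcineurin subunits Ppp3cb (log2 difference -0.17, SE 0.041, adjusted p = 0.00413) and Ppp3r1 (log2 difference -0.24, SE 0.051, adjusted p = 0.000770), Ppargc1a, the coactivator of oxidative fibres (log2 difference -0.21, SE 0.048, adjusted p = 0.00153), and Esrrg, the nuclear receptor it works with (log2 difference -0.25, SE 0.084, adjusted p = 0.0438). Among the higher ones was Hdac5, which represses MEF2 (log2 difference 0.16, SE 0.047, adjusted p = 0.0175). With the wheel 5 were higher and none lower, among them Tead1 (log2 difference 0.25, SE 0.046, adjusted p = 0.000209), Mef2d (log2 difference 0.17, SE 0.032, adjusted p = 0.000305), Esrrg (log2 difference 0.34, SE 0.084, adjusted p = 0.00821) and Ppargc1a (log2 difference 0.15, SE 0.048, adjusted p = 0.0419). In females 17 of the 23 were lower and 3 higher, Ppp3ca, Esrrg and Prox1, the last at 0.39 ± 0.080 (log2, SE, adjusted p = 8.1e-05). The largest fall was that of Tbx15, a factor of glycolytic fibres (log2 difference -0.52, SE 0.048, adjusted p = 2.2e-13). By pairs, 15 of the 23 were lower in females in locked controls and 11 in locked labelled mice. In running controls 3 were lower and in running labelled mice 2. Over all genes 1609, 1463, 654 and 467 were lower in these pairs. For wheel by sex 8 of the 23 were called, where 1961 of all genes were.

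Because HuR binds AU-rich RNA, the pentamer AUUUA was counted in the region after the stop codon of the transcript with the longest coding part of each gene (GENCODE M21). It was present in 2 of the 10 members, Atp2a2 with 9 and Tpm3 with 2 copies, in 2 of the 10 fast counterparts and in 66.1% of 13384 genes of the table with such a region. The members' regions were short, with a median of 208 bases against 994 bases over those genes. Per kb there were 1.92 copies in the members and 1.82 over all these genes. Atp2a2 and Tpm3 differed with the label by 0.30 and 0.44 on the log2 scale, inside the range of the members without the pentamer. HuR binding and RNA stability were not measured, and the part of HuR in these differences was not tested.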

How the data were processed

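Gastrocnemius RNA of 56 mice was sequenced. The deposited table holds whole-number read counts per gene and mouse, which the authors made and did not normalize, and the submitters' processing notes name GRCm38/mm10, R 4.0.3 and edgeR 3.38.4. The aligner and the use of strand in counting are not given in the sources used here. The labels describe a 3′ end kit and the study's methods a stranded total RNA kit, which conflict, so levels were not compared between genes except among myosin heavy chains. Groups and mouse numbers were taken from the labels, which do not name litters.

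Genes with low counts were removed with filterByExpr (edgeR 4.0.16, minimum count of 10), which left 14321 genes. Libraries were scaled by TMM, and 1 fit of the 8 group means was made with voom and limma 3.58.1 in R 4.3.3. Mean effects average the 4 matching pairs of groups. P-values were adjusted by Benjamini-Hochberg over all genes, and genes at 0.05 or less were called. Levels are TMM-scaled CPM, with a prior count of 2 on the log2 scale. Deviations from group means were used for slopes on Myh7 and for correlations, whose p-values came from 100000 permutations within groups. The Myh7 share was compared by exact two-sided permutation tests over 3432 splits of 7 against 7 mice, the smallest possible p being 0.000583.

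The members, the other gene lists and the settings were chosen with earlier results of these data known. Named genes outside the lists were the 10 most and the 5 least correlated with Myh7 within groups, at a mean of at least 10 counts. The values of 1 listed gene are not reported here. Values of single mice for Myl1 were added after the data were seen. Alternatives were DESeq2 1.42.0 (size factors and Wald test), edgeR's quasi-likelihood test, limma trend, quality weights, other filters, other TMM genes, fits to the compared groups alone, a replicate block and leaving out each mouse. Leaving out MH9 and FC15 together was chosen after seeing the data. The fits were tested on simulated data. Between replicates, chi-square per degree of freedom was 3.30 to 46.1, so no library appeared to be deposited more than once.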

Additional observations from a re-analysis of the deposited data

Results flagged for a closer look

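Of 88 sets of 7 mice examined (the 10 members and the Myh7 share in the 8 groups), 1 had a mouse far from the others. Tnnc1 in MC was 129 CPM in MC31, against 91.6 CPM in the next mouse, a gap of 0.575 of the range in that group. About 1 in 20 such sets would be marked by chance alone. MC31 also had all 10 members above the means of MC.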

How the results depend on the processing

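The 8 label calls, the 2 wheel calls and the 10 sex calls in the mean effects stood under every alternative run. The counts of members called per pair of groups did not. The wheel in male controls called 1 member, but 0 with DESeq2's size factors, with TMM without the 10 most counted genes, with no filter and without MH9 and FC15, and 2 with DESeq2's Wald test, quality weights or only the groups compared, which also gave 2 for the wheel in female controls. The label in locked males called 4 (edgeR quasi-likelihood), 5 (Wald), 3 (limma trend), 4 (quality weights), 2 (10 counts in every mouse) and 0 (only the groups compared, or without MH9 and FC15). The label in running males called 2 (Wald), 3 (quality weights) and 0 (only the groups compared), and in running females 1 (only the groups compared). Sex in locked labelled mice called 5 (Wald) and 2 (only the groups compared), and in running labelled mice 2 (edgeR quasi-likelihood and Wald). For the summed share of Myh7 and Myh2 the wheel differences were 2.55, 1.46, 1.68 and 2.74 percentage points (male and female controls, labelled males and females; adjusted p = 0.00233, 0.0431, 0.0431 and 0.00233 by exact permutation), all past the threshold, and the label difference in locked females was 0.197 (adjusted p = 0.651), no longer past it. In running females the label difference of the summed share was 1.48 percentage points (adjusted p = 0.0494 by exact permutation), past the threshold. Myh2 had a mean count of 20378 against 1085 for Myh7, so the summed share was mostly that of Myh2. The cause was not tested.

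With single mice left out, the members called ran from 0 to 1 (wheel, male controls), 0 to 4 and 0 to 3 (label, locked and running males), 8 to 9 (mean label), 7 to 10, 4 to 7, 4 to 9 and 0 to 6 (sex, in locked and running controls and locked and running labelled mice) and 8 to 9 (slope on Myh7). The differences in Myh7 share ran from 0.0314 to 0.0576, 0.00544 to 0.0395, 0.00312 to 0.0647 and -0.0415 to 0.0304 percentage points for the wheel and from 0.0832 to 0.145, 0.0851 to 0.123, 0.148 to 0.22 and 0.139 to 0.177 for the label (locked and running males, locked and running females). Genes called in all ran from 8 (without MC20) to 448 (without MH8) for the label in locked males, from 86 (without MCE10) to 521 (without MHE4) in running males and from 0 to 170 in locked females. A slope on Myh7 was called for 92 genes without MH12 and 327 without MH11, against 235 with all mice. Over the other settings the label counts ran from 24 to 405, from 223 to 1037 and from 0 to 181, for the wheel from 431 to 1046 in male controls, from 2 to 226 in labelled males and from 161 to 673 in labelled females. No called value changed its sign. Every number that recurs belongs to 1 male and 1 female, hence to different mice. The 12 such pairs with the same label and wheel had correlations of -0.202 to 0.183, 5 of them over 0.1, so the numbers were not taken as pairing, and the other shared numbers were not examined. With a replicate block the mean label effect called 8 members and 1686 genes, the mean wheel effect 2 and 826, and sex 10 and 4779.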
